A study of Gallus gallus with 51 samples.

Results

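BCL11A, KIAA0173 and LOC57209 were 3 of the 1509 gene probes on an array of human transcription factor oligonucleotides that was hybridised with RNA of chicken cochlear sensory epithelia after neomycin. KIAA0173 is the older name of TTLL4, and LOC57209 that of ZNF248. Each gene had 1 probe, printed in 2 spots. The genes were chosen by the study's own expression ratios, as members of a small group that changed in every injury model it tested, and these arrays were among the data behind that choice. The neomycin over control ratios of the 3 genes are therefore given as a description. A fit over all probes, the 3 genes among them, is given only as background.

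The epithelia came from White Leghorn chicks of 10 to 21 days after hatching. Cochleae had been cultured for 24 hr with 1 mM neomycin, an aminoglycoside that kills hair cells, the sensory cells of the ear. The sensory epithelia were separated from the other tissue only at harvest. Harvest was at 0 hr, 24 hr or 48 hr after the drug was removed. Every array set neomycin RNA against RNA of epithelia from untreated cochleae of the same culture time. There were 17 arrays at 0 hr, 16 at 24 hr and 18 at 48 hr, from 3 biological replicates at each time, and the arrays of 1 replicate were technical copies. In each biological replicate, 4 treated and 4 control epithelia were pooled and their RNA was amplified before labelling, so single birds cannot be told apart. Suffix 3 marks arrays with neomycin RNA in the dye Cy3 and suffix 5 arrays with neomycin RNA in Cy5. All ratios below are log2 of neomycin over control, so that a positive value means more signal from treated epithelia. A replicate's value is the mean of its suffix 3 and suffix 5 means.

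BCL11A is a zinc finger protein that represses transcription. In mammals it is known for silencing fetal globin genes in red cell precursors and for its part in the development of B lymphocytes, and it binds BCL6, COUP nuclear receptors and chromatin complexes that remodel or deacetylate histones. TTLL4 is not a transcription factor but a glutamylase, an enzyme that adds glutamate side chains to tubulin and to histone chaperones. ZNF248 is a human zinc finger protein with a KRAB domain, a module that recruits the corepressor TRIM28 to DNA. In the present chicken annotation, BCL11A and TTLL4 each had 1 gene of that name and ZNF248 had none. The array's probes were human sequences, and how far the LOC57209 probe caught RNA of related chicken zinc finger genes was not tested.

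Array quality differed widely. The share of an array's spots no brighter than the background around them ran up to 81.5% in Cy3 and up to 89.0% in Cy5, and every array with a share over 50% was from replicate 1 of 0 hr or of 24 hr. Markers of hair cells and supporting cells were seen only in part. The 4 hair cell markers were above the negative controls in 5.88% (BARHL1), 15.7% (ATOH1), 22.5% (GFI1) and 34.3% (POU4F3) of the 102 array-channels, 1 dye of 1 array each. The 5 supporting cell markers were above them in 0% (EYA1), 17.6% (GATA3), 26.5% (PROX1), 43.1% (SOX2) and 58.8% (HEY2), and the median gene probe in 16.7%. Blood cell markers ranged from 0.980% for ZNFN1A1 to 23.5% for GATA1. No tested marker passed the test of neomycin against control at any time.

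The first question was whether the 3 probes gave signal at all. A probe counted as detected in an RNA of an array where its signal exceeded 95% of the negative-control spots measured in that dye. BCL11A was detected in 48 of 102 array-channels (47.1%), KIAA0173 in 69 (67.6%) and LOC57209 in 77 (75.5%).

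For BCL11A, the zinc finger repressor, detection changed with time and replicate. At 0 hr it was detected in 7 of 17 control channels and 8 of 17 neomycin channels, and at 24 hr in 6 of 16 and 4 of 16. At 48 hr it was detected in 10 of 18 control channels and 13 of 18 neomycin channels. At 24 hr, 8 of those 10 detected channels belonged to replicate 3, where both RNAs were detected on 4 of 4 arrays, while replicate 2 had none in either RNA. The median signal of BCL11A was 1.90 times the negative-control median in control RNA at 0 hr, 1.30 times at 24 hr and 2.31 times at 48 hr. It stayed within a few fold of the negative controls throughout, and its highest value on any array was 7.01 times, in neomycin RNA at 48 hr.

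KIAA0173 gave its strongest signal at 0 hr. Its control RNA was detected on 17 of 17 arrays there, with a median signal 17.3 times the negative-control median and a range from 1.87 to at least 47.7 times. The highest value had both spots at the top of the scanner's range, and the lowest came from 1 array of replicate 3 that ran against the others. Its neomycin RNA at 0 hr was detected on 16 of 17 arrays, with a median of 4.76 times. At 24 hr the control RNA was detected on 7 of 16 arrays with a median of 1.03 times, and at 48 hr on 11 of 18 with a median of 3.03 times. Neomycin RNA was detected on 9 of 16 arrays at 24 hr and 9 of 18 at 48 hr, with medians of 1.44 and 3.36 times. In control RNA at 24 hr, KIAA0173 was thus at the level of the negative controls on most arrays. The exceptions were 2 arrays of replicate 1, 1 array of replicate 2 at 2.95 times, and all arrays of replicate 3, which had median signals of 17.7 times in control RNA and 4.13 times in neomycin RNA.

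LOC57209 was detected on 13 of 17 arrays in each RNA at 0 hr. At 24 hr it was detected on 6 of 16 arrays in control RNA and 10 of 16 in neomycin RNA, and at 48 hr on 17 of 18 and 18 of 18. The difference between the RNAs at 24 hr came from 6 arrays of replicate 1. There neomycin RNA was detected on 4 and control RNA on 0, though control RNA reached 5.35 times the negative-control median. Over all 24 hr arrays the median signal was 2.84 times in control RNA and 2.34 times in neomycin RNA. Replicate 2 at 24 hr stood apart from every other replicate, since LOC57209 was detected on 0 of 4 arrays in either RNA and its median signal was 0.732 times the negative-control median in control RNA and 0.806 times in neomycin RNA. Its ratio in that replicate is therefore a ratio of signals no brighter than the negative controls.

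**Figure D1:**
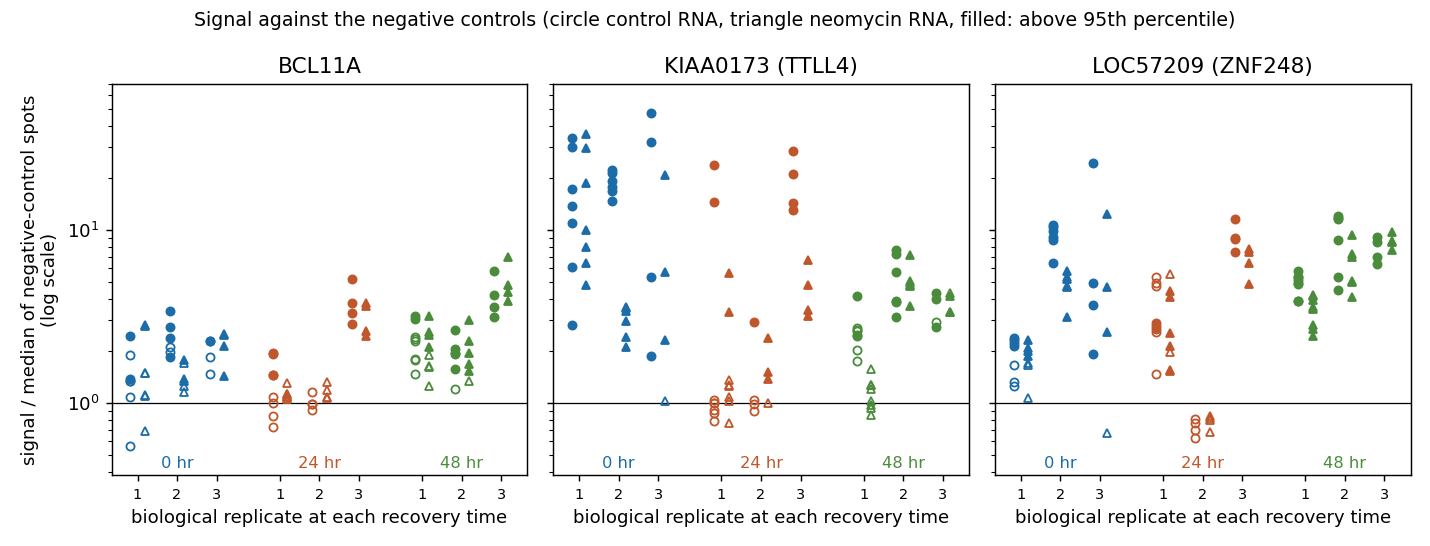
Signal of each probe divided by the median negative-control spot in that dye of that array (log axis), for control RNA (circles) and neomycin RNA (triangles) of every array, by biological replicate and recovery time. Filled symbols lie above the 95th percentile of the negative controls, the line marks the negative-control median, and KIAA0173 in control RNA reaches at least 47.7 times at 0 hr, on an array at the top of the scanner's range, whereas LOC57209 lies under the line in replicate 2 at 24 hr.

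The next question was how neomycin changed the signal of the 3 genes at each time. The 1282 probes that passed a filter on dim signal were fitted together in limma, and 0 (0%) had an adjusted p under 0.05 at any of the 3 times. Before adjustment, 38, 107 and 58 probes were under that limit at the 3 times in turn. None of the 3 genes was called. By a looser rule that uses no test, the same sign in 3 of 3 replicates and a mean past 1.2-fold, 0 of the 3 genes were called at 0 hr, where 6.79% of all tested probes were. LOC57209 alone was called at 24 hr, with 12.9% of all probes, and BCL11A alone at 48 hr, with 12.7%. These shares stand beside the counts only as background, since the choice of the genes used the same contrast.

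BCL11A had a ratio above 0 in most replicates, by small amounts. At 0 hr the replicates had log2 ratios of 0.64, -0.09 and 0.05, with a mean of 0.20 ± 0.38 (SD, n = 3). At 24 hr they were -0.01, 0.46 and 0.33, with a mean of 0.26 ± 0.24 (SD, n = 3). The 24 hr replicate at 0.46 had BCL11A detected on 0 of 4 arrays in either RNA. Its median signals were 0.98 times the negative-control median in control RNA and 1.13 times in neomycin RNA. In replicate 1 at 24 hr, neomycin RNA was detected on 0 of 8 arrays. At 48 hr the log2 ratios were 0.53, 0.42 and 0.26, with a mean of 0.41 ± 0.14 (SD, n = 3), or 1.32-fold higher with neomycin. Only at 48 hr did all replicates lie on the same side of 0, and the 3 groups overlapped, since the highest replicate of all was at 0 hr. Single arrays were higher with neomycin on 10 of 17 at 0 hr, 12 of 16 at 24 hr and 13 of 18 at 48 hr. At 48 hr the replicates spanned 0.28, but the arrays of replicate 1 spanned 1.62, from -0.25 to 1.37. The arrays of replicate 2 spanned 1.12 and those of replicate 3 0.50. The small SD at 48 hr thus does not show how far single arrays differed. Under median centring, described below, the 48 hr replicates were at 0.23, 0.35 and 0.27, all still above 0.

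The 0 hr mean of BCL11A rested on replicate 1. That replicate had 1 array of suffix 5 at 2.17 and 1 array of suffix 3 at 1.53, and BCL11A was detected on 2 of its 7 arrays in each RNA, the array at 1.53 among them. On the array at 1.53, however, the control signal of 830 lay below the background around its spots, at 1148. On the array at 2.17 the signal was 0.690 times the negative-control median in neomycin RNA and 0.561 times in control RNA. Without replicate 1, the 0 hr mean was -0.02. In replicate 2 at 0 hr the suffixes took opposite sides, with a mean of -0.72 over the suffix 3 arrays and of 0.55 over the suffix 5 arrays.

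KIAA0173, the glutamylase TTLL4, varied more between replicates than nearly any other probe. At 0 hr its replicates had log2 ratios of 0.01, -1.81 and -2.33, with a mean of -1.37 ± 1.23 (SD, n = 3). At 24 hr they were 0.19, 0.66 and -1.48, with a mean of -0.21 ± 1.12 (SD, n = 3). At 48 hr they were -1.26, 0.51 and 0.09, with a mean of -0.22 ± 0.93 (SD, n = 3). In 4 replicates the signal was over 2-fold lower with neomycin, and in the other 5 it was between 1.01-fold and 1.58-fold higher. With median centring, an alternative normalisation described below, replicate 1 was at -0.10 at 0 hr and at -0.04 at 24 hr. In replicates 1 and 2 at 24 hr the median control signal was only 0.996 and 1.01 times the negative-control median. The SD at 0 hr compares with a median SD of 0.22 over all tested probes, and 99.8% of probes had a smaller one.

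The low values of KIAA0173 repeated across arrays. In replicate 2 at 0 hr all 6 arrays lay between -2.16 and -1.35, and in replicate 3 at 24 hr all 4 lay between -1.76 and -1.18. In replicate 1 at 48 hr all 8 lay between -2.11 and -0.22. KIAA0173 was near the negative controls in that replicate, however. Its neomycin RNA was detected on 0 of 8 arrays, with a median of 1.11 times the negative-control median. Its control RNA was detected on 2 of 8, with a median of 2.53 times. In contrast, the 6 arrays of replicate 2 at 48 hr lay between 0.10 and 0.83. At 24 hr the replicates spanned 2.14 on the log2 scale and the arrays of 1 replicate at most 1.29, whereas at 48 hr the replicates spanned 1.78 and the arrays of replicate 1 alone 1.89.

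At 0 hr, replicate 3 held 1 array that ran against the others. Its suffix 5 array 2 gave KIAA0173 a ratio of 3.53, where the other 3 arrays gave -4.04, -3.01 and -2.37. LOC57209 showed the same pattern, with 2.70 on that array against -3.52, -3.55 and -0.0039 on the others. Over all gene probes, the ratios of that array correlated with those of the other 3 arrays by -0.62, -0.25 and -0.25, while the others correlated among themselves by between 0.30 and 0.44. The image header and the deposited ratios give that array the same direction as its label, so its direction is not settled by the data at hand.

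The array mattered to both genes. Without it, replicate 3 was at -3.36 for KIAA0173 and at -2.65 for LOC57209, and with its sign turned the values were -3.50 and -2.80. The 0 hr means became -1.72 ± 1.69 (SD, n = 3) and -0.86 ± 1.55 (SD, n = 3) without it. On another array of that replicate, suffix 5 array 3, both KIAA0173 spots were at the top of the scanner's range in control RNA, so the ratio of -2.37 there understates the difference. BCL11A moved little, from 0.05 to 0.17 in replicate 3.

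LOC57209 lay below 0 at 0 hr through replicate 3 alone. Its log2 ratios at 0 hr were -0.09, 0.16 and -1.90, with a mean of -0.61 ± 1.12 (SD, n = 3). At 24 hr they were 0.87, 0.36 and 0.22, with a mean of 0.48 ± 0.34 (SD, n = 3), or 1.40-fold higher with neomycin. At 48 hr they were 0.30, -0.01 and 0.17, with a mean of 0.15 ± 0.16 (SD, n = 3). Without replicate 3, the 0 hr mean was 0.03. The lowest 24 hr replicate, at 0.22, lay only a little above the highest 0 hr replicate, at 0.16. How many other probes were separated in this way was not counted. Single arrays were higher with neomycin on 13 of 16 at 24 hr and on 12 of 18 at 48 hr. All these ratios were normalised by loess, a correction that follows the dye balance along the range of intensity. With median centring, which shifts all spots of an array by the same amount, the counts were 9 and 6, and replicate 1 was lower, at 0.44 in place of 0.87 for 24 hr and -0.12 in place of 0.30 for 48 hr. The 24 hr replicate at 0.36 is the one in which LOC57209 was no brighter than the negative controls.

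**Figure D2:**
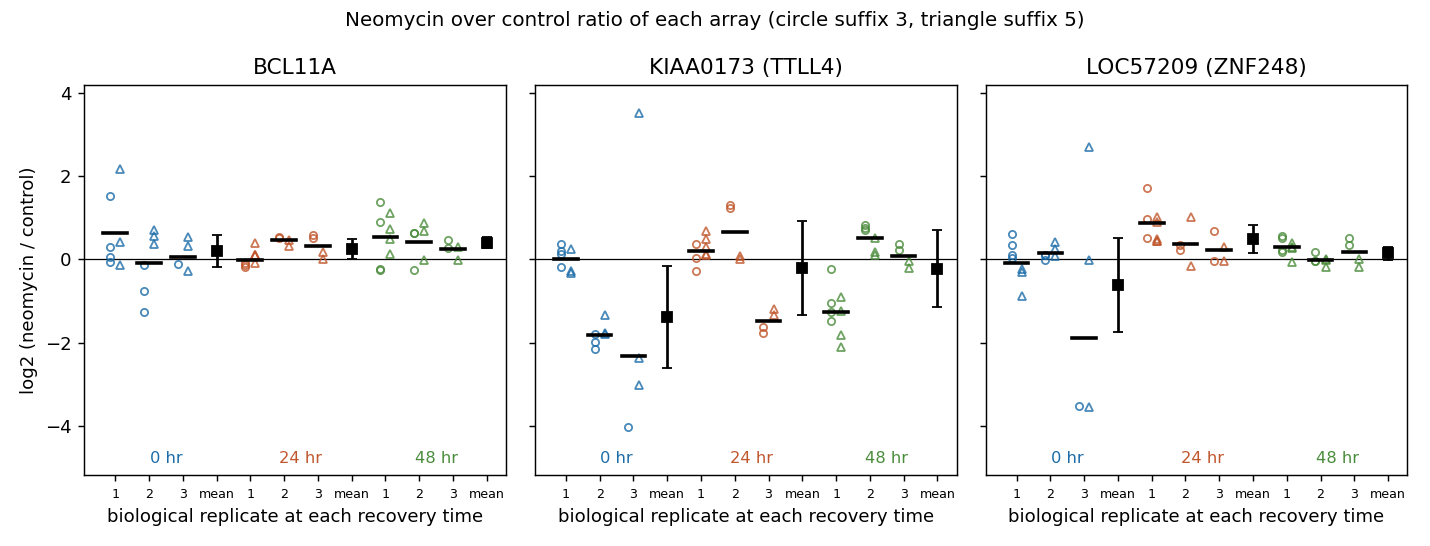
Log2 ratio of neomycin over control for every array (circles for suffix 3, triangles for suffix 5), by biological replicate and recovery time, with bars at the replicate values and squares with whiskers at the mean ± SD of 3 replicates. The replicates of BCL11A lie between -0.09 and 0.64 and its arrays between -1.28 and 2.17, KIAA0173 spans from -2.33 to 0.66 among the replicates, and the arrays of replicate 3 at 0 hr split into opposite signs for KIAA0173 and LOC57209.

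The normalised level of each RNA was computed from the mean of both dyes and the ratio. For KIAA0173 the control level was 12.81, 14.14 and 13.92 in the 0 hr replicates, on the log2 intensity scale, and 10.27, 10.52 and 13.19 at 24 hr. At 48 hr it was 11.37, 11.64 and 10.05. The control level was above 13 in the replicates with the 3 lowest ratios and in no other. A low ratio raises the control level by construction, since that level is the mean of both dyes less part of the ratio. The mean of both dyes was 13.23 and 12.75 in replicates 2 and 3 at 0 hr and 12.45 in replicate 3 at 24 hr. It was 12.82 in replicate 1 at 0 hr, whose control level stayed under 13. The pattern is therefore partly arithmetic. Replicate 1 at 48 hr had a ratio of -1.26 at a control level of 11.37. The neomycin level was 12.82, 12.33 and 11.59 in the 0 hr replicates, 10.47, 11.18 and 11.71 in those of 24 hr, and 10.11, 12.15 and 10.14 in those of 48 hr. The 0 hr levels of replicate 3 include the array whose direction is not settled.

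For BCL11A the control level lay between 9.50 and 11.24 and the neomycin level between 9.79 and 11.78 over all 9 replicates. Both levels moved together from replicate to replicate, and the highest of each was in replicate 1 at 48 hr. That is largely by construction, since both levels hold the same mean of both dyes. This mean ran from 9.73 to 11.51, and the ratios were small beside that range. For LOC57209 the control level ranged from 8.20 in replicate 2 at 24 hr to 13.05 in replicate 3 at 0 hr, and at 48 hr it was 12.72, 12.69 and 11.46. In replicate 3 at 0 hr the neomycin level was 11.15 and the mean of both dyes 12.10. The control level at the top of its range there thus owed part of its height to the low ratio itself.

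**Figure D3:**
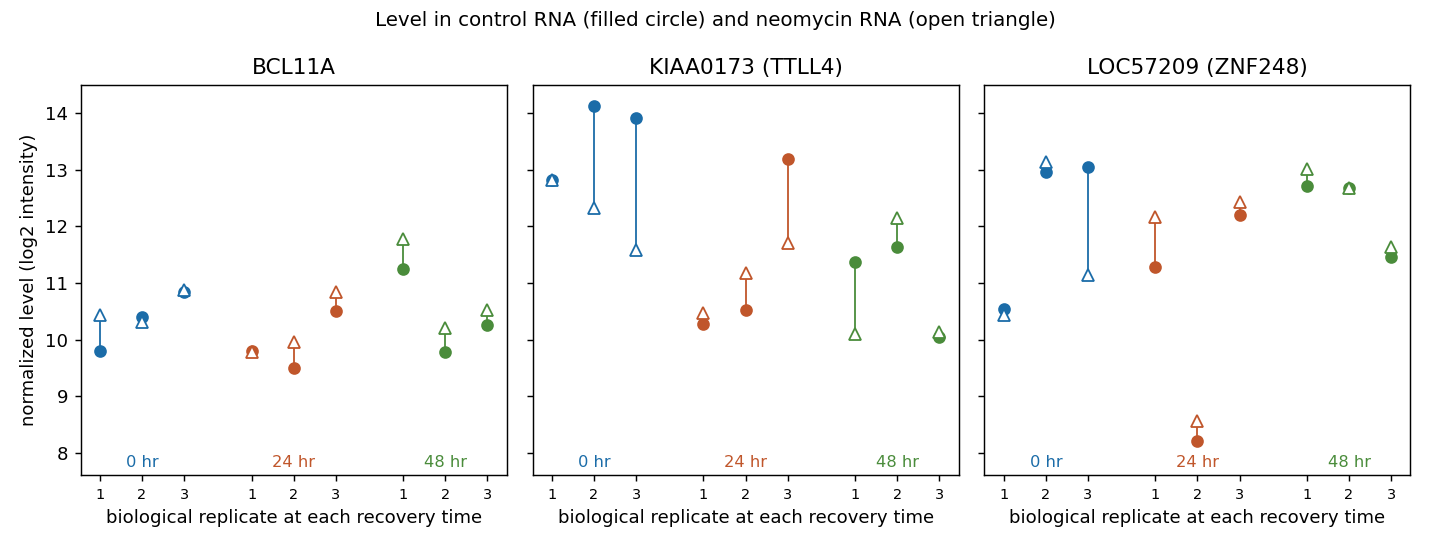
Normalised level, as log2 intensity after quantile normalisation of the mean of both dyes, in control RNA (filled circles) and neomycin RNA (open triangles) of each biological replicate, with a line joining the pair. For KIAA0173 the 3 replicates with control levels above 13 have the longest lines downwards, and LOC57209 drops to 8.20 in control RNA in replicate 2 at 24 hr. A low ratio raises the control level by construction.

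The mean level of both RNAs was compared between recovery times. The choice of the genes rested on ratios, but the study first removed probes of low intensity, so that choice was not fully independent of the level. The F test in limma over the 3 times called 0% of the 1282 probes at an adjusted p under 0.05, with 30 at an unadjusted p under 0.05, and the contrast of 48 hr with 0 hr also called 0%, with 45. KIAA0173 was at 12.93 ± 0.26 (SD, n = 3) at 0 hr, and it stood at 11.22 ± 1.09 after 24 hr of recovery and 10.91 ± 0.91 after 48 hr. Its 48 hr level was lower than the 0 hr level by a log2 difference of -2.02 (SE 0.63), or 4.07-fold, and limma gave an unadjusted p of 0.00758 and an adjusted p of 0.919. The difference did not pass over all probes. The lowest 0 hr replicate, at 12.75, lay above the highest 48 hr replicate, at 11.89. The share of all probes with such a separation was not counted, so it carries no weight beside the test.

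The levels of the 3 times were mostly quantified on different dates, so time and date cannot be told apart for most arrays. The 1 date that held arrays of 2 times had 5 of 0 hr and 6 of 48 hr, and there KIAA0173 was lower at 48 hr by a log2 difference of -1.18. All 5 arrays came from 1 biological replicate, and so did all 6, so that difference is between single replicates. With single arrays and the quantification date as a random block, the difference was -1.46 and the adjusted p in limma was 9.0e-05. Over the 13 other settings the adjusted p ranged from 0.463 to 0.996. The random date block counts arrays of 1 RNA pair as separate values, calls 123 probes for the F test and assumes that arrays of different dates vary independently.

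BCL11A was at 10.44 ± 0.38, 10.07 ± 0.52 and 10.63 ± 0.79 at 0 hr, 24 hr and 48 hr (SD, n = 3 each). Its difference between 48 hr and 0 hr was 0.19 (SE 0.53), with an adjusted p of 0.957 in limma. LOC57209 was at 11.88 ± 1.29, 10.81 ± 2.12 and 12.36 ± 0.72 (SD, n = 3 each), with a difference of 0.48 (SE 0.96) and an adjusted p of 0.952. For both, the replicates of 1 time spread wider than the times differed.

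The 8 arrays of replicate 1 at 24 hr were made up of unlike sets. On 6 arrays the image headers have the word Coch where the others name the control, and these share 1 quantification date, while the other 2 arrays, of suffix 5, share another. KIAA0173 was detected on 0 of the 6 arrays in either RNA, at between 0.764 and 1.36 times the negative-control median, but on both of the other 2. There its control RNA was at 14.6 and 23.8 times and its neomycin RNA at 3.35 and 5.66 times. Over all gene probes, the mean intensities of the 6 arrays correlated by between 0.71 and 0.95 and those of the other 2 by 0.80, but across the sets the range was from 0.35 to 0.52.

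The KIAA0173 ratio on those 2 arrays depended on the normalisation. After loess the ratios were 0.13 and 0.30, and after median centring they were -1.51 and -1.40. The ratios of LOC57209 on these arrays went from 0.45 and 0.43 to -0.70 and -0.17, and those of BCL11A from 0.11 and 0.10 to -0.65 and 0.0015. After loess and from these 2 arrays alone, the replicate was at 0.21 for KIAA0173, at 0.10 for BCL11A and at 0.44 for LOC57209, against 0.19, -0.01 and 0.87 from all 8. The 24 hr mean of LOC57209 was then 0.34 ± 0.11 (SD, n = 3).

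The dye difference, 0.5 times the suffix 5 mean minus the suffix 3 mean, measures how far a probe prefers a dye. The study kept genes whose trend repeated in most hybridisations, and its hybridisations included dye switches. The choice of the genes may thus have favoured small dye differences. In limma, 0% of the 1282 probes passed at an adjusted p under 0.05, with 64 at an unadjusted p under 0.05. The dye difference of BCL11A was 0.10 (SE 0.08), with an adjusted p of 0.925 and a positive sign in 6 of 9 replicates. That of KIAA0173 was 0.09 (SE 0.16), with an adjusted p of 0.972, and that of LOC57209 0.08 (SE 0.15), with an adjusted p of 0.972. The largest values were 1.71 for KIAA0173 and 1.62 for LOC57209, both in replicate 3 at 0 hr, the replicate with the contrary array. With that array's sign turned they were 0.53 and 0.72, and the means over the 9 replicates were -0.04 and -0.02. The suffixes had the same sign in 6 of 9 replicates for BCL11A, 7 for KIAA0173 and 6 for LOC57209, and the median tested probe had 5. The study's rule on trends may have favoured such counts too.

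**Figure D4:**
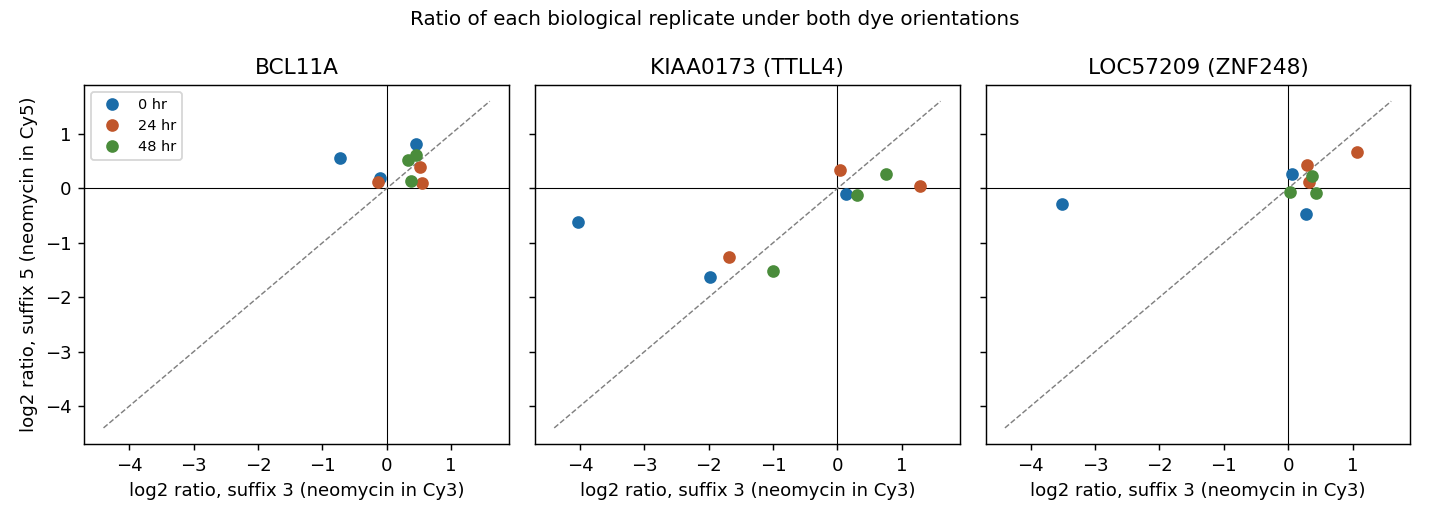
Mean log2 ratio over the suffix 3 arrays (x axis) and the suffix 5 arrays (y axis) of each biological replicate, coloured by recovery time, with a dashed line of equality. KIAA0173 lies off the line in replicate 3 at 0 hr, at -4.04 and -0.62, and in replicate 2 at 24 hr, at 1.28 and 0.048, and BCL11A has its farthest point in replicate 2 at 0 hr, at -0.72 and 0.55.

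HOXD8, NR1H3 and TRIP15 were named by the study together with the 3 genes, from the same kind of ratios, and none passed the test. HOXD8, a homeobox factor, had mean log2 ratios of -0.36 ± 0.59, 0.51 ± 0.47 and 0.39 ± 0.44 at 0 hr, 24 hr and 48 hr (SD, n = 3 each). NR1H3, the nuclear receptor LXR alpha, had 0.08 ± 0.10, -0.36 ± 0.08 and -0.12 ± 0.45. TRIP15, a subunit of the COP9 signalosome, had -0.51 ± 0.35, 0.17 ± 0.09 and -0.16 ± 0.35. HOXD8 and TRIP15, like LOC57209, had a mean below 0 at 0 hr and above 0 at 24 hr. For LOC57209 the 0 hr mean was 0.03 without replicate 3. The share of all tested probes with these signs was not counted, so the likeness is only a description.

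The partners of BCL11A gave no called gene. Of 23 genes listed for the proteins it binds, 16 were on the array and all 16 were tested, and 0 passed in either direction at any time. Their median log2 ratios at the 3 times were 0.06, -0.03 and -0.07, against -0.0080, 0.0037 and -0.017 over all tested probes. BCL11B, the close relative of BCL11A, had mean ratios of -0.27 ± 0.38, -0.45 ± 0.41 and -0.31 ± 0.14 (SD, n = 3 each), all opposite in sign to those of BCL11A, and was detected in 41.2% of array-channels. NR2F1, a COUP receptor, had 0.39 ± 0.26 at 48 hr but was detected in only 8.82%. MTA1, a subunit of a deacetylase complex, had -0.95 ± 0.72 at 24 hr, with an adjusted p of 0.588 in limma.

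For the KRAB pathway of ZNF248, 4 of 5 listed corepressor genes were tested and 0 passed. SETDB1, the histone methyltransferase of that pathway, had 0.38 ± 0.05 (SD, n = 3) at 24 hr, with an adjusted p of 0.600, and CBX5, a heterochromatin protein, was detected in 0% of array-channels. Of 172 probes with a zinc finger name, 112 were tested and 0 passed. Their median log2 ratios at the 3 times were 0.03, 0.06 and 0.12. At 0 hr, 26 of the 112 were higher in 3 of 3 replicates and 18 were lower, where 11.8% and 11.5% of all tested probes were. At 24 hr the counts were 16 and 8, beside 13.1% and 13.7%, and at 48 hr 23 and 2, beside 14.4% and 16.1%. Most of these probes were near the negative controls, since the median of the 112 was detected in 8.33% of array-channels, against 16.7% for the median gene probe. For TTLL4, 2 of 6 listed substrates were on the array. NAP1L1, a histone chaperone, had 0.22 ± 0.26 and PHAP1 0.16 ± 0.12 (SD, n = 3) at 48 hr, and neither passed.

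Other probes with the most similar pattern over the 9 biological replicates were looked up for each gene among the 1281 other tested probes. KIAA0173 was most like PREB (r = 0.94), HCNGP (r = 0.90) and KIAA0540 (r = 0.89). Without the replicates farthest from the median of KIAA0173, both at 0 hr, these were 0.86, 0.80 and 0.81. The mean log2 ratios of PREB at the 3 times were -1.17, -0.15 and -0.12, lowest at 0 hr as for KIAA0173, and it was detected in 78.4% of array-channels.

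BCL11A was most like ETV3 (r = 0.90), TNRC12 (r = 0.89) and BACH2 (r = 0.86), and ETV3 and BACH2 were detected in only 7.84% and 11.8% of array-channels. Without the 2 farthest replicates these were 0.83, 0.72 and 0.65. LOC57209 was most like FLJ13659 (r = 0.96), TRC8 (r = 0.93) and TAF2A (r = 0.90), but without replicate 3 at 0 hr and replicate 1 at 24 hr these fell to 0.50, 0.34 and -0.17. The likeness to LOC57209 thus rested on those replicates. The points of each correlation share arrays and normalisation, so these are descriptions over 9 replicates.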

How the data were processed

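Chicken cochlear sensory epithelia were compared on 51 two-colour arrays, each with neomycin and time-matched control RNA, from 9 biological replicates. The authors deposited ImaGene scanner output (file version 4.1) that gives the intensity of every spot and of its surroundings in both dyes, without normalization. A deposited table held log2 ratios of neomycin over control, and on all 51 arrays it was identical to the ratio of raw signal means, so it was neither background-corrected nor normalized. Its array medians ranged from -1.49 to 2.55, and it served only as an alternative.

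The analysis used limma 3.58.1 in R 4.3.3. The background of signal means was removed by normexp (offset 50), and dye balance by loess fitted array by array on spots other than controls. The dye named for neomycin in the image headers equalled the suffix on 51 of 51 arrays, and arrays were turned to neomycin over control. On 0 hr replicate 3 suffix 5 array 3 the header names Cy5 for both RNAs. Both spots of a probe were averaged, then arrays within each suffix, then suffixes. Of 1536 probes, 19 negative controls and 8 mismatch probes were left out, then the dimmest 15% of gene probes (227), and 1282 were tested. The 19 probes were taken as negative controls by their names. All 3 genes passed this filter.

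Replicate values were fitted in limma with lmFit and eBayes, with a term for recovery time, with the Benjamini-Hochberg adjustment over all tested probes. Levels were mean log2 intensities, quantile normalized between arrays. Depth is not defined for arrays, and the number of replicates limits the precision. Where nothing says that replicates came from separate animals, p-values measure only the spread between these samples. The fits were also run on simulated data with independent normal noise and large effects. That run cannot show how often effects as small as most of those here would be found.

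The named genes were the 3 genes, HOXD8, NR1H3 and TRIP15, the 3 probes of highest Pearson correlation with each gene, and lists for the partners and pathways of each gene and for cell types. Members and lists were chosen with earlier results of these data known. Alternatives covered background correction, signal medians, centring, scaling, array weights, suffixes, filters, blocks, a t-test on replicate values and each replicate left out. Alternatives on single arrays, on counts of arrays under median centring, on the header sets of 24 hr replicate 1 and on the date block of the levels were chosen after seeing the data. No RefSeq sequence of these probes or genes was used here.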

Additional observations from a re-analysis of the deposited data

Results flagged for a closer look

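Among 27 groups of 4 to 8 arrays, each the arrays of 1 gene in 1 biological replicate, 1 array stood far from the others of its group. In replicate 1 at 24 hr, the suffix 3 array 2 gave LOC57209 a log2 ratio of 1.73, and the other 7 of the 8 arrays lay between 0.43 and 1.02. Chance flags about 1 in 20 such groups.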

How the results depend on the processing

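Of 123 values of the 3 genes' mean log2 ratios under other settings, 119 moved by less than 1 SD of the replicates, which is a wide limit for KIAA0173, with SDs from 0.93 to 1.23. The values past that limit were of LOC57209 at 24 hr and 48 hr and of BCL11A at 48 hr. LOC57209 at 24 hr and BCL11A at 48 hr were also the values called by the looser rule. With the deposited ratios centred on each array's median, LOC57209 turned to -0.012 at 24 hr from 0.48 and to -0.21 at 48 hr from 0.15, and BCL11A fell from 0.41 to 0.11 at 48 hr. Median centring gave LOC57209 -0.014 at 48 hr. Other signs changed within the limit. BCL11A at 0 hr was -0.087 with the deposited ratios and -0.12 from the suffix 3 arrays alone, and KIAA0173 was 0.016 at 24 hr with signal medians and 0.018 at 48 hr from the suffix 3 arrays alone. KIAA0173 stayed below 0 at 0 hr in all 11 alternatives on processing or arrays, between -1.96 and -0.79. Leaving out 1 replicate at a time moved BCL11A between -0.02 and 0.34 at 0 hr, 0.16 and 0.39 at 24 hr, and 0.34 and 0.48 at 48 hr. It moved KIAA0173 between -2.07 and -0.90, -0.64 and 0.43, and -0.59 and 0.30. It moved LOC57209 between -0.997 and 0.03, 0.29 and 0.62, and 0.08 and 0.24. KIAA0173 turned above 0 without replicate 3 at 24 hr (0.43) and without replicate 1 at 48 hr (0.30), BCL11A below 0 without replicate 1 at 0 hr (-0.018), and LOC57209 above 0 without replicate 3 at 0 hr (0.034).

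The count of 0 probes became 37 at 24 hr and 4 at 48 hr with single arrays and the biological replicate as a random block, and 8, 70 and 41 at 0 hr, 24 hr and 48 hr where the random block was the date of quantification. These fits count arrays of 1 RNA pair as separate values. The methods' t-test gave 14, 29 and 16 probes at its fold and unadjusted limits and 0 after adjustment. The dye difference gave between 0 and 1 probe without 1 replicate. The level F test gave 123 probes with the date as a random block. Against the 99th percentile of the negative controls BCL11A was detected in 27.5% of array-channels and LOC57209 in 64.7%. Against their median, BCL11A was detected in 93.1%, KIAA0173 in 88.2% and LOC57209 in 91.2%. The cause of these shifts was not tested.

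With the replicate number as a block (replicate block), 0 probes passed at each time and in the level F test, and the adjusted p of the KIAA0173 level became 0.471. Same-numbered replicates of different times correlated in their deviations by between -0.16 and 0.06, so no pairing by number was seen in these values. The labels do not say whether the numbers pair the samples.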
